A study of Mus musculus with 6 samples.

Results

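The genes described here encode 10 enzymes that remove superoxide and peroxides: peroxiredoxins 1 to 5 (Prdx1, Prdx2, Prdx3, Prdx4, Prdx5), glutathione peroxidases 1 and 4 (Gpx1, Gpx4), superoxide dismutases 1 and 2 (Sod1, Sod2) and catalase (Cat). They were taken by symbol from the deposited table of raw counts, which holds 11922 genes, and all 10 were found and passed the filter on low counts. The cells were splenic CD8+ T cells of C57BL6/J mice, isolated with magnetic beads. They were activated for 72 hours with beads carrying antibodies to CD3 and CD28 and then expanded for 4 days, with interleukin-2 at 100 units/ml throughout and RNA taken on day 7. Water (vehicle) or 0.25 mM AOA (aminooxyacetic acid, which blocks enzymes that use the vitamin B6 cofactor pyridoxal phosphate) was present throughout. The same 3 donor mice gave the 3 vehicle and 3 AOA cultures, and each library is numbered by its mouse. Both groups grew in medium with β-mercaptoethanol, a thiol reductant, so every library describes cells kept in a reducing supplement. No genotype was altered.

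Superoxide, a by-product of respiration and of NADPH oxidases, is converted to hydrogen peroxide by the superoxide dismutases, Sod1 mainly in the cytosol and Sod2 in the mitochondrial matrix. Hydrogen peroxide is then reduced by peroxiredoxins, which draw electrons from thioredoxin, and by glutathione peroxidases, which draw them from glutathione, or is split by catalase in peroxisomes. In T cells the same peroxide also acts as a signal after receptor engagement, and these enzymes limit it.

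Total counts were between 12881962 and 21997078 per library, and a member had between 145 and 15193 counts in a library. Levels are given as CPM (counts scaled to a common library size, with TMM factors), and as RPKM (CPM per kilobase of the deposited gene length) where genes are compared with each other. Within a group the libraries differed beyond counting noise. The chi-square per gene was 10.2 for vehicle replicates 1 and 3 and 10.7 for AOA replicates 2 and 3, but between 55.9 and 72.3 for pairs with vehicle replicate 2 or AOA replicate 1, so these 2 libraries stood apart. AOA replicate 1 was the highest AOA library for 8 members, all of 1553 bases or less, and not for Sod2 and Cat, the 2 longest at 2551 bases or more. Results are therefore also given without those 2 libraries, a setting chosen after the data had been seen. It keeps 2 libraries a group, picked for being alike, which narrows the spread within groups. Its p-values therefore tend to be too low and are given only as descriptions.

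The label of the cells was checked with fixed markers. Of 6 CD8 T cell markers 5 were in the table, with a summed level of 2908 to 3737 CPM with vehicle and 3994 to 4644 CPM with AOA, where Cd8a and Cd8b1 were called higher (log2 fold changes of 1.03 and 0.64) and Cd3e, Cd3g and Cd3d were not called (-0.27, -0.31 and -0.13). All 4 CD4 T cell markers were found, at a summed 158 to 210 CPM with vehicle and 33.0 to 54.3 CPM with AOA, and 3 of them were called lower. Of 8 myeloid markers 3 were found, at 40.8 to 54.2 CPM with vehicle and 0.873 to 3.33 CPM with AOA. In vehicle nearly all of that was Itgam, which was called lower. Cd14 had 0.271 to 1.03 CPM in vehicle and at most 0.0529 CPM with AOA, while Lyz2, at 0 in 2 vehicle libraries and 0.317 CPM in the other, had 0.101 to 1.16 CPM with AOA; both were too low to be tested. B cell markers (5 of 6 found) stood at 13.9 to 18.4 and 23.1 to 30.9 CPM, NK cell markers (3 of 4 found) at 145 to 308 and 128 to 213 CPM, and none of 8 erythroid markers was in the table. The NK sum was mostly Eomes, which CD8+ T cells also express (log2 fold change 0.04, not called), while Klrb1c was called lower, from 41.7, 111 and 20.1 CPM in vehicle to between 3.38 and 11.05 CPM with AOA. The part of other cells in the values below was not tested. In bulk RNA, fewer cells of a type and less RNA per cell cannot be told apart.

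AOA raised the RNA of 5 of the 10 enzymes and lowered that of 1. Prdx1 and Prdx4 rose most, to 3.84-fold and 3.07-fold of vehicle, followed by Gpx1 at 2.02-fold, Prdx3 at 1.46-fold and Sod2 at 1.44-fold. Prdx5 fell, with vehicle 1.36-fold above AOA. Prdx2, Gpx4, Sod1 and Cat did not pass the test. Each p comes from the edgeR quasi-likelihood fit and is adjusted by Benjamini-Hochberg over the 11759 genes tested; genes below 0.05 are called. Over all tested genes 53.0% were called, 26.2% higher and 26.8% lower with AOA. The 3 AOA libraries lay above all 3 vehicle libraries for 5 members and below them for 1, where 31.0% and 31.1% of tested genes did so. The median log2 fold change was 0.40 over the members and -0.02 over all tested genes. Without vehicle replicate 2 and AOA replicate 1, 5 members were called higher and 4 lower, where that fit called 33.8% of all genes higher and 32.8% lower.

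**Figure D1:**
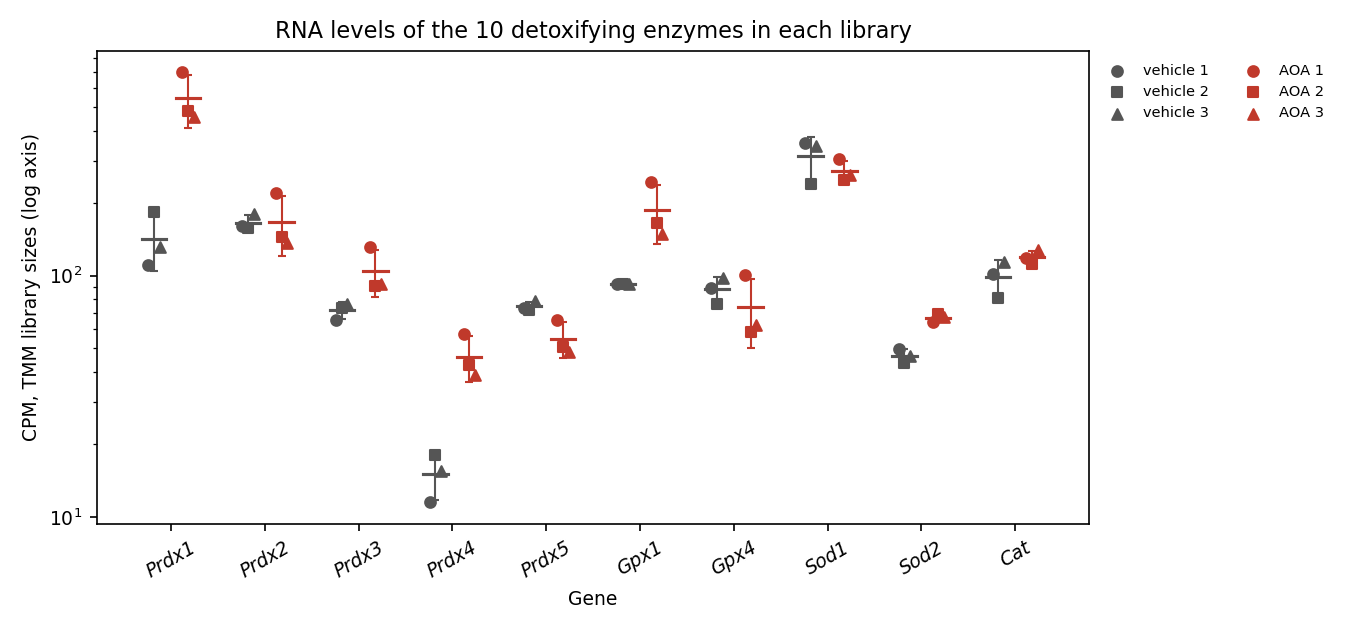
Level of each of the 10 enzymes in CPM (log axis) in each library, with grey symbols for vehicle, red symbols for AOA and 1 symbol shape per mouse; horizontal lines and bars are group means ± SD (n = 3). The AOA and vehicle symbols are apart for Prdx1, Prdx3, Prdx4, Prdx5, Gpx1 and Sod2 and overlap for the other 4 genes.

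By length-scaled level, Sod1 led the members in vehicle with 484 ± 99.0 RPKM (SD, n = 3). Prdx5, Prdx2, Prdx1 and Gpx1 followed at 109, 107, 100.1 and 88.2 RPKM, and each of the first 3 overlapped its next neighbour. Gpx4 (57.3) and Prdx3 (49.7) overlapped each other, Cat stood alone at 38.8, and Prdx4 (15.3) and Sod2 (12.2) were lowest and overlapped. With AOA the head of this order changed. Sod1 (419 ± 43.6 RPKM) and Prdx1 (385 ± 94.2 RPKM) overlapped at the top and Gpx1 came next at 178 ± 48.6 RPKM. Prdx2 (108), Prdx5 (79.6), Prdx3 (72.4), Gpx4 (48.1), Prdx4 (47.0) and Cat (46.8) then each overlapped the next, and Sod2 was again lowest at 17.5 RPKM. RPKM rests on 1 length per gene, so isoform use can shift these orders.

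Prdx1 encodes an abundant cytosolic and nuclear peroxiredoxin of the kind that forms a disulfide between its subunits. Its gene lies on the forward strand of mm10, chr4:116685544-116700822. Its level was 111, 183 and 131 CPM in vehicle replicates 1 to 3, and 698, 480.1 and 456 CPM in AOA replicates 1 to 3. Every AOA library stood above every vehicle library, and AOA replicate 1 was the highest. The log2 fold change was 1.94 ± 0.24 (SE, n = 3 per group; edgeR adjusted p = 0.000216), with 2.66, 1.39 and 1.80 within mice 1, 2 and 3. By RPKM, Prdx1 moved from the top 3.73 to 7.55% of all genes in vehicle libraries to the top 1.17 to 1.51% in AOA libraries. Without the 2 libraries that stood apart the log2 fold change was 1.98. RefSeq names 1 pseudogene of Prdx1, absent from the table, and reads from such near-identical copies are uncertain.

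Prdx4, the peroxiredoxin of the endoplasmic reticulum, where it takes up peroxide made during disulfide formation, lies on the reverse strand at chrX:155323918-155340754. It had 11.5, 18.1 and 15.5 CPM in vehicle and 57.4, 42.6 and 38.6 CPM in AOA replicates 1 to 3. The groups were well apart, with the lowest AOA library above the highest vehicle library. The log2 fold change was 1.62 ± 0.21 (SE; edgeR adjusted p = 0.000319) and was 2.32, 1.24 and 1.32 within the mice. Prdx4 stood among the top 33.9 to 46.1% of genes by RPKM in vehicle libraries and the top 12.4 to 17.7% in AOA libraries.

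The promoters of Prdx1 and Prdx4 are shown as those of the 2 members that rose most, beside that of Srxn1, the sulfiredoxin gene whose protein repairs over-oxidised peroxiredoxins and whose RNA fell (values below). Each window runs from 250 bases before to 50 bases after the start that RefSeq gives in GRCm38.p6 (the mm10 build), 5′ to 3′ along the gene's strand, and all 10 members matched an entry, with 13 windows. Capitals mark matches on either strand to the core of the antioxidant response element (TGACNNNGC, bound by NRF2 with small MAF proteins), to an AP-1 site (TGACTCA) and to an E-box (CACGTG); matches to different motifs may overlap.
Prdx1 (chr4:116685349-116685648, forward strand): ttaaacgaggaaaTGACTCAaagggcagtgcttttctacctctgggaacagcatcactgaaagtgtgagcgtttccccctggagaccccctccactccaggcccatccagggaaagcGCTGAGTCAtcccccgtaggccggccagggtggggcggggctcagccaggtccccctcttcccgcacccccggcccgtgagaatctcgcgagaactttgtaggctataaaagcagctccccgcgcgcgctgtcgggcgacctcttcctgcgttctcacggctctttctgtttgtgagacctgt
Prdx4 (chrX:155338411-155338710, reverse strand): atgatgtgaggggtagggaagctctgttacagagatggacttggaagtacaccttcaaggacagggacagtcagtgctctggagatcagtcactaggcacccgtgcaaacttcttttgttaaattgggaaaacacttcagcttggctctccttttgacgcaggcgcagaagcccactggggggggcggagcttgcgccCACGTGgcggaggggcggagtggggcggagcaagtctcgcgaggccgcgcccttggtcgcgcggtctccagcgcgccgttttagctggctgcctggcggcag
Srxn1 (chr2:152105274-152105573, forward strand): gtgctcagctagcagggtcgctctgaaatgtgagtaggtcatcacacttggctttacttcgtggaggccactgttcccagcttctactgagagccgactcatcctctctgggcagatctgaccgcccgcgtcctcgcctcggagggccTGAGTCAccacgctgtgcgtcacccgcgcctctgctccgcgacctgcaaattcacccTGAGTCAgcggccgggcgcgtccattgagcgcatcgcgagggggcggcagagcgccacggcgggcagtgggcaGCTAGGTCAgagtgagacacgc
The Prdx1 window held 1 antioxidant response element core, 133 bases upstream of the start and overlapping 1 of its 2 AP-1 sites. The Srxn1 window held 1 such core, beginning 28 bases after the start, and 2 AP-1 sites, while Prdx4 held only an E-box, 52 bases upstream. Prdx1, which rose, and Srxn1, which fell, both had the core and AP-1 sites in their windows, and a link between motif and direction was not tested. Among the members, the core occurred for 2 (Prdx1 and Sod1), AP-1 for 1 and the E-box for 1, each counted over 10 genes with 13 windows. Of all 32851 promoter windows 12.4%, 5.20% and 7.15% held the core, AP-1 and the E-box, and of the 11991 windows of tested genes 14.4%, 3.58% and 10.05%. A match is only a run of letters, and binding was not measured.

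Prdx2, the closest relative of Prdx1 in the cytosol, did not follow it. Its level was 160.2, 157 and 180.1 CPM in vehicle and 221, 144 and 137 CPM in AOA replicates 1 to 3. AOA replicate 1 lay above all vehicle libraries and the other 2 AOA libraries below them. The log2 fold change was 0.02 ± 0.19 (SE; edgeR adjusted p = 0.952). Without vehicle replicate 2 and AOA replicate 1 it was -0.25 (adjusted p = 0.0335), the only one of 16 alternatives that called it, while its sign was negative in 7 of the 16. Prdx2 overlaps Rnaseh2a and Junb on the opposite strand in GENCODE vM21 and has 2 pseudogenes named by RefSeq. None of the sources used here gives the strand setting of the counting, so reads of Prdx2 and of those neighbours cannot be told apart.

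Prdx3 encodes the peroxiredoxin of the mitochondrial matrix. It had 65.2, 73.5 and 76.6 CPM in vehicle and 131, 90.9 and 92.0 CPM in AOA replicates 1 to 3. The AOA libraries all lay above vehicle, with replicates 2 and 3 close to the vehicle range. The log2 fold change was 0.54 ± 0.17 (SE; edgeR adjusted p = 0.0225), and 1.01, 0.31 and 0.26 within the mice. The call was lost without vehicle replicate 1 (0.50, adjusted p = 0.0732), and without vehicle replicate 2 and AOA replicate 1 the value was 0.39 (adjusted p = 0.00784).

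Prdx5, an atypical peroxiredoxin found in mitochondria, peroxisomes and cytosol, was the member that fell. It had 73.7, 72.1 and 78.4 CPM in vehicle and 65.4, 50.5 and 48.4 CPM in AOA replicates 1 to 3. All AOA libraries lay below vehicle, AOA replicate 1 by the least. The log2 fold change was -0.45 ± 0.15 (SE; edgeR adjusted p = 0.0285), with -0.17, -0.51 and -0.69 within the mice. The call was lost without vehicle replicate 1, vehicle replicate 3, AOA replicate 2 or AOA replicate 3, with adjusted p up to 0.123, and without vehicle replicate 2 and AOA replicate 1 the value was -0.59 (adjusted p = 0.000574). Prdx5 overlaps Trmt112 on the opposite strand.

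**Figure D2:**
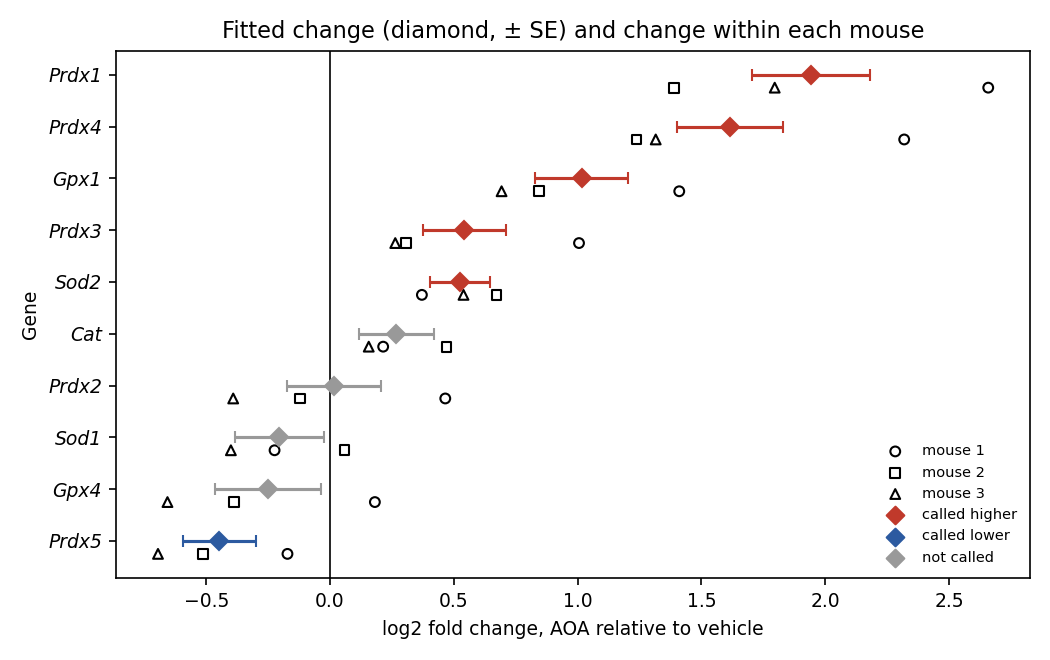
Fitted log2 fold change of AOA relative to vehicle (diamonds, bars ± SE, n = 3 per group; red called higher, blue called lower, grey not called) with the log2 ratio within each mouse (open symbols) for the 10 enzymes. Prdx1 and Prdx4 stand furthest right at 1.94 and 1.62, and Prdx5 is the one blue diamond at -0.45; Prdx2, Gpx4 and Sod1 have mice on both sides of 0.

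These changes altered the make-up of peroxiredoxin RNA. The summed level of peroxiredoxins 1 to 5 was 345, 405 and 391 RPKM in vehicle and 879, 611 and 584 RPKM in AOA replicates 1 to 3. Prdx1 made up 22.6, 32.0 and 23.7% of that sum in vehicle and 56.1, 55.4 and 55.2% in AOA libraries. Prdx5 went from 25.9 to 31.0% down to 10.8 to 12.1%, and Prdx2 from a mean of 28.2 ± 2.74% to 15.5 ± 0.587% (SD, n = 3). Prdx4 took 3.39 to 4.54% and then 6.64 to 7.09%, and Prdx3 12.6 to 13.6% and then 10.3 to 10.9%. The groups did not overlap in any of these 5 shares, which are given as descriptions. The shares add up to the whole, so they are not separate results. That of Prdx2 fell though its RNA was not called (log2 fold change 0.02), and that of Prdx3 fell though its RNA was called higher (0.54). Prdx6, the remaining peroxiredoxin, which uses glutathione, had 257, 139.8 and 253 CPM in vehicle and 213, 208 and 197 CPM with AOA and was not called (log2 fold change -0.07 ± 0.22, SE; edgeR adjusted p = 0.799). Its value ran from -0.27 without vehicle replicate 2 to 0.0929 without vehicle replicate 1, and it was called lower without vehicle replicate 2 and AOA replicate 1 (-0.31, adjusted p = 0.00773).

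**Figure D3:**
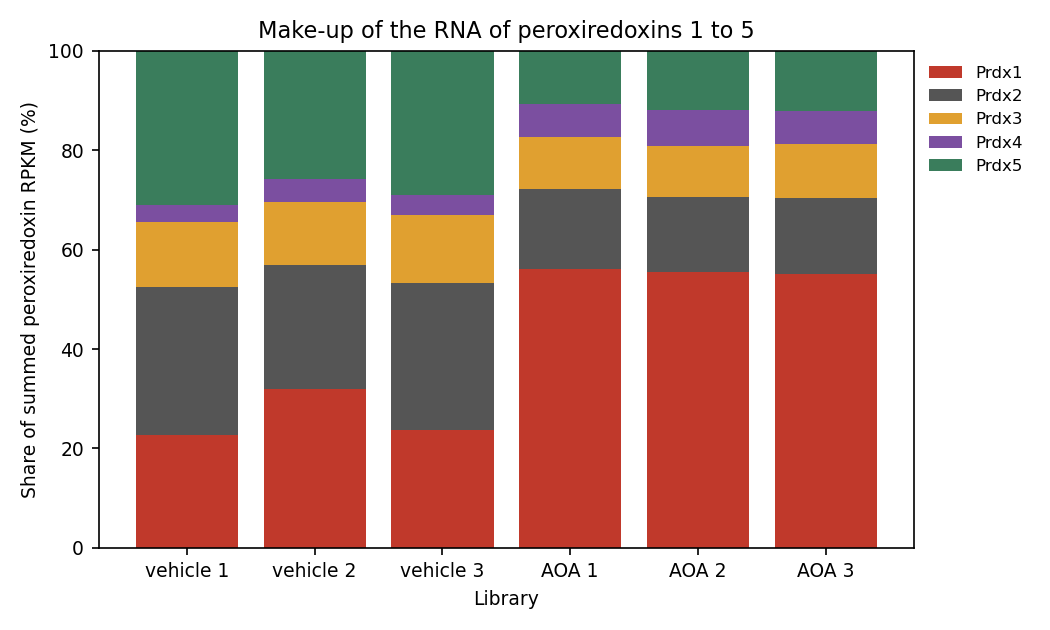
Share (%) of each of Prdx1 to Prdx5 in their summed RPKM, with 1 stacked bar per library. Prdx1 fills 22.6 to 32.0% of the bars in vehicle and 55.2 to 56.1% with AOA.

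Oxidised peroxiredoxins 1 to 3 regain electrons from thioredoxin, Txn1 in the cytosol and Txn2 in mitochondria, which thioredoxin reductases (Txnrd1 and Txnrd2 in the same places) reduce with NADPH. Txn1 had 165, 193 and 191 CPM in vehicle and 637, 451 and 418 CPM in AOA replicates 1 to 3, with no overlap (log2 fold change 1.46 ± 0.19, SE; edgeR adjusted p = 0.000279). Txnrd1 rose by 0.96 ± 0.15 from 97.3, 128 and 106 CPM to 199, 225 and 219 CPM (edgeR adjusted p = 0.000657). Thus Prdx1, its donor and the reductase of that donor were each called higher, whereas Prdx2, which draws on the same donor, was not. Of the mitochondrial set, Txn2 rose by 0.69 ± 0.15 (edgeR adjusted p = 0.00401) and Txnrd2 was not called, at 12.1, 13.9 and 10.9 CPM with vehicle and 10.9, 11.1 and 10.1 CPM with AOA (-0.20 ± 0.18; edgeR adjusted p = 0.362). Txnrd3, another reductase at a low level, rose from 1.08 to 1.35 CPM to 3.54 to 3.93 CPM.

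Among genes that fell in this system were the thioredoxin inhibitor and the repair enzyme. Txnip, whose protein binds thioredoxin, had 2137, 916 and 2024 CPM in vehicle and 441, 287 and 401 CPM in AOA replicates 1 to 3 (log2 fold change -2.17 ± 0.32, SE; edgeR adjusted p = 0.000584). Srxn1 had 8.02, 17.1 and 7.33 CPM in vehicle and 2.02, 3.81 and 1.87 CPM with AOA. Mouse 2 was the highest of its group both times, and the groups did not overlap (-2.08 ± 0.41, SE; edgeR adjusted p = 0.00250). Sesn3, a sestrin, was called lower at -0.40, but not without vehicle replicate 1 or 3 or without any one AOA replicate (adjusted p between 0.0530 and 0.160). In all, 4 of the 10 thioredoxin system genes were called higher, 3 lower and 3 were not called.

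Gpx1 is the widely expressed glutathione peroxidase of cytosol and mitochondria, and Gpx4 is the one that reduces lipid hydroperoxides within membranes. Both carry selenocysteine at the catalytic site, written as UGA in the RNA, and the coding sequence around that codon is shown because it is what sets them apart from peroxiredoxins; capitals mark the codon, read from GENCODE vM21 transcripts with T for U, 21 bases on each side.
Gpx1 (chr9:108339451-108339453): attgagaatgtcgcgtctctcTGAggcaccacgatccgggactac
Gpx4 (chr10:80054737-80054739): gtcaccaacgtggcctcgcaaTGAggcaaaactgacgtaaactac
The windows share 25 of 45 bases, codon included, and the codon is residue 47 of 201 in Gpx1-201 and residue 129 of 253 in Gpx4-201.

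Despite that shared chemistry the pair moved unequally. Gpx1 had 92.1, 92.5 and 92.6 CPM in vehicle, the tightest group of any member, and 245, 166 and 149.6 CPM in AOA replicates 1 to 3. Every AOA library lay above vehicle (log2 fold change 1.02 ± 0.19, SE; edgeR adjusted p = 0.00179), with 1.41, 0.84 and 0.69 within the mice and 0.80 without the 2 libraries that stood apart. Gpx4 had 89.0, 76.4 and 98.2 CPM in vehicle and 101, 58.4 and 62.3 CPM with AOA. AOA replicate 1 exceeded every vehicle library while AOA replicates 2 and 3 were below all of them, and Gpx4 was not called (-0.25 ± 0.21, SE; edgeR adjusted p = 0.348). Without AOA replicate 1 it was called lower (-0.54, adjusted p = 0.0180), and also without vehicle replicate 2 and AOA replicate 1 (-0.61, adjusted p = 0.000593). RefSeq names 2 pseudogenes of Gpx4, which are absent from the table.

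The ratio of Gpx4 to Gpx1 within a library does not depend on library scaling. It was 0.660, 0.564 and 0.724 in vehicle and 0.281, 0.240 and 0.284 in AOA replicates 1 to 3, a log2 difference of -1.27, and -1.23, -1.23 and -1.35 within mice 1 to 3. AOA replicate 1, the highest library in level for both genes, lay between the other AOA libraries in this ratio. In an exact two-sided permutation test p was 0.1, the smallest that 3 against 3 can give, and this design cannot reach 0.05. The test did not pair libraries by mouse, and with pairing the smallest possible p is 0.25. All 4 ratios tested had the same exact permutation p of 0.1, also after adjustment over the 4.

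Since selenium supply serves both genes, the genes that make and insert selenocysteine were counted. Of 6, 1 was called higher and 5 were not called. Eefsec, the elongation factor that brings selenocysteine to the ribosome, rose by 1.19 ± 0.15 on the log2 scale, from a mean of 16.3 CPM up to 37.2 CPM (edgeR adjusted p = 0.000260). Sepsecs, which makes the selenocysteine on its tRNA, and Scly, which frees selenium from selenocysteine, both use pyridoxal phosphate, the cofactor that AOA targets. Sepsecs had 5.32, 9.19 and 6.46 CPM in vehicle and 9.42, 6.77 and 6.66 CPM with AOA, and Scly 24.3, 35.2 and 28.6 CPM and then 35.5, 30.9 and 38.2 CPM. Both pairs of groups overlapped (log2 fold changes 0.12 ± 0.26 and 0.25 ± 0.17, SE; edgeR adjusted p = 0.722 and 0.246). Scly was called higher without vehicle replicate 2 (0.43, adjusted p = 0.0394) and without that library and AOA replicate 1 (0.41, adjusted p = 0.0299), while Sepsecs was not called in either fit (0.40 and 0.21). Other selenoproteins split, with 4 of 12 called higher, 4 lower and 4 not called. Selenof of the endoplasmic reticulum, Selenoh of the nucleus and Selenoi, a phospholipid enzyme, had log2 fold changes of 1.12, 0.99 and 0.81, while Selenom, Selenon and the secreted selenium carrier Selenop had -2.40, -2.23 and -1.86.

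Glutathione peroxidases depend on glutathione and on its reductase. Gsr, the reductase, had 43.5, 62.1 and 50.4 CPM in vehicle and 68.5, 83.1 and 77.4 CPM in AOA replicates 1 to 3, without overlap (log2 fold change 0.55 ± 0.16, SE; edgeR adjusted p = 0.0162). That call was lost without vehicle replicate 1, vehicle replicate 3 or AOA replicate 2, with adjusted p between 0.0521 and 0.0632. Of 11 tested glutathione system genes 6 were called higher, 1 lower and 4 were not called. Gclm, the modifier subunit of the enzyme that starts glutathione synthesis, rose by 0.73 from 18.2 to 27.7 CPM up to 34.4 to 37.5 CPM. Chac2, which degrades glutathione, rose by 0.87, and its call, though not its direction, was lost without vehicle replicate 1 or 3 or AOA replicate 1 or 3 (log2 fold changes 0.62 to 0.96, adjusted p between 0.0655 and 0.151). Glrx3, an iron-sulfur glutaredoxin, rose by 0.65, and its call was lost without vehicle replicate 1 or 3 or AOA replicate 1 (0.41 to 0.61, adjusted p between 0.0980 and 0.116). Glrx, the cytosolic glutaredoxin that removes glutathione from proteins, fell by 0.93, from 66.6 to 126 CPM down to 49.3 to 53.9 CPM (edgeR adjusted p = 0.00516).

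**Figure D4:**
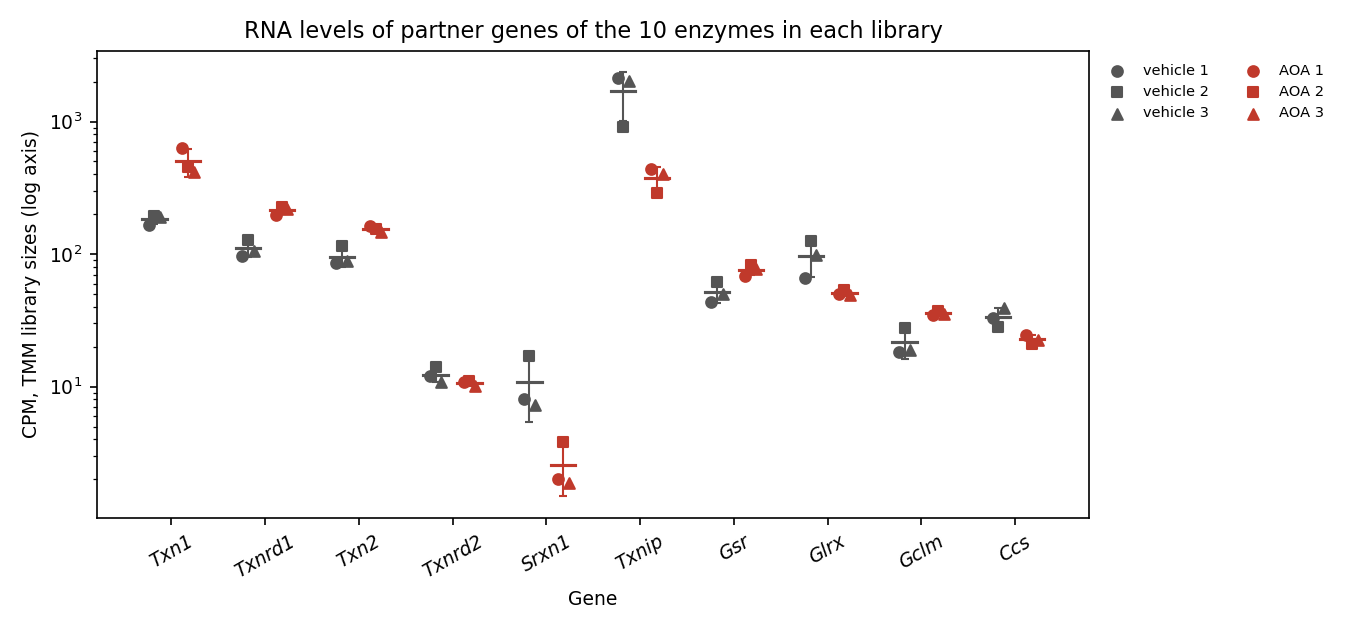
Level in CPM (log axis) of 10 partner genes in each library, with grey symbols for vehicle, red for AOA, 1 symbol shape per mouse, and group means ± SD (n = 3). Txn1, Txnrd1, Txn2, Gsr and Gclm are higher in all AOA libraries, Txnip, Srxn1, Glrx and Ccs are lower in all of them, and Txnrd2 overlaps.

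Both systems end at NADPH. Of 8 tested genes listed for its supply 3 were called higher and 5 were not called, and Me1 was not in the table. Me2, a malic enzyme of mitochondria, rose by 0.66 (edgeR adjusted p = 0.00770), but it works mainly with NAD and is not a main source of NADPH. G6pdx, the first step of the pentose phosphate pathway, rose by 0.59 (edgeR adjusted p = 0.0301). G6pdx lost its call without vehicle replicate 1 or 3 or AOA replicate 2 or 3 (adjusted p between 0.0591 and 0.105). Nadk2, the mitochondrial NAD kinase, was called at 0.40 but not once the mouse entered the fit as a block (adjusted p = 0.0765), nor without any one of vehicle replicates 1 to 3 or AOA replicates 2 and 3 (adjusted p between 0.0582 and 0.159).

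Sod1, the copper and zinc dismutase, was the most abundant member by RPKM in vehicle. It had 354.5, 239.5 and 346.3 CPM in vehicle and 303.5, 249.4 and 262.3 CPM in AOA replicates 1 to 3. Vehicle replicate 2 was the lowest library of all, and the groups overlapped (log2 fold change -0.21 ± 0.18, SE; edgeR adjusted p = 0.360). Without that library and AOA replicate 1 Sod1 was called lower (-0.43, adjusted p = 0.00145). Sod1 overlaps Scaf4 on the opposite strand. Ccs, the chaperone that loads copper into Sod1, had 32.7, 28.2 and 39.2 CPM in vehicle. With AOA it had 24.5, 21.1 and 22.6 CPM, all below vehicle (-0.55 ± 0.16, SE, edgeR adjusted p = 0.0172). The call of Ccs was lost without vehicle replicate 3, AOA replicate 2 or AOA replicate 3 (adjusted p between 0.0607 and 0.104).

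Sod2, the manganese dismutase of mitochondria, rose. It had 49.8, 43.4 and 46.4 CPM in vehicle and 64.5, 69.2 and 67.4 CPM in AOA replicates 1 to 3. Both groups were tight and did not overlap (log2 fold change 0.53 ± 0.12, SE; edgeR adjusted p = 0.00581), with 0.37, 0.67 and 0.54 within the mice. The ratio of Sod2 to Sod1 was 0.0238, 0.0307 and 0.0227 in vehicle and 0.0360, 0.0470 and 0.0436 in AOA libraries, a log2 difference of 0.72 in the same direction in 3 of 3 mice (exact permutation p = 0.1, the smallest possible). Prdx3, which follows Sod2 in the matrix, rose less than cytosolic Prdx1: their ratio went from 0.578, 0.393 and 0.572 to 0.184, 0.186 and 0.198, a log2 difference of -1.42 (exact permutation p = 0.1).

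**Figure D5:**
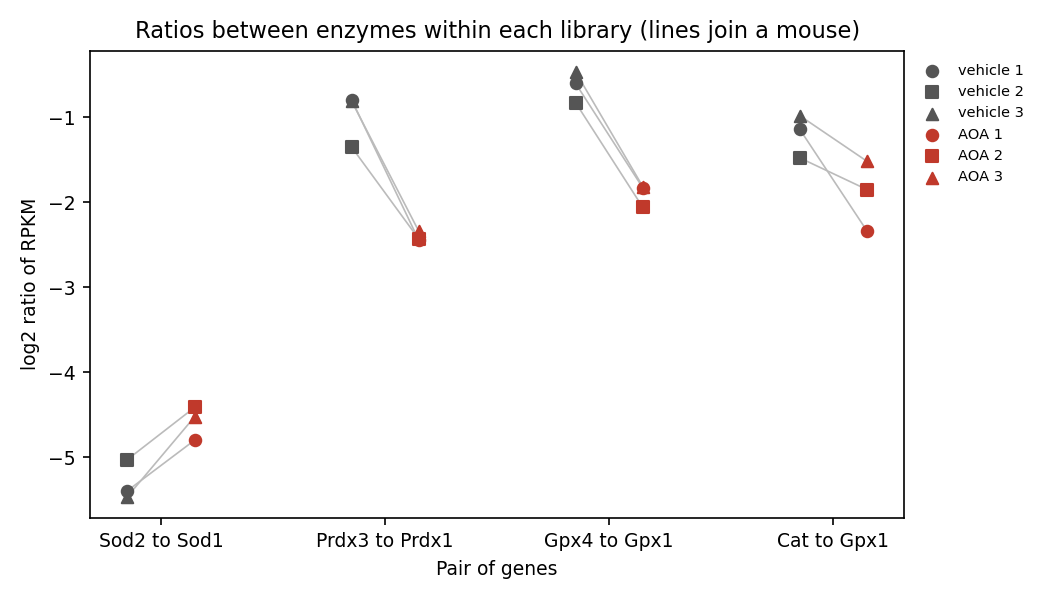
Log2 ratio of RPKM for 4 pairs of enzymes within each library, with grey symbols for vehicle, red for AOA and lines joining the 2 libraries of a mouse. Sod2 to Sod1 goes up by 0.72 on average, and Prdx3 to Prdx1, Gpx4 to Gpx1 and Cat to Gpx1 change by -1.42, -1.27 and -0.70, in 3 of 3 mice each.

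Cat, the heme enzyme of peroxisomes, had 102, 81.0 and 114 CPM in vehicle and 118, 112 and 127 CPM in AOA replicates 1 to 3. Vehicle replicate 3 lay within the AOA range, and Cat was not called (log2 fold change 0.27 ± 0.15, SE; edgeR adjusted p = 0.165), though higher in 3 of 3 mice by 0.21, 0.47 and 0.16. Its ratio to Gpx1 went from 0.454, 0.360 and 0.507 to 0.198, 0.278 and 0.350, a log2 difference of -0.70 (exact permutation p = 0.1). Of 13 genes for import into peroxisomes, where catalase works, 2 were called higher, 4 lower and 7 were not called. Pex5, the receptor that carries catalase and other matrix proteins, fell by 1.04 on the log2 scale from 73.2, 47.2 and 64.5 CPM to 26.3, 31.3 and 32.1 CPM (edgeR adjusted p = 0.00130). Pex7, the receptor for the other import signal, rose by 0.83 (edgeR adjusted p = 0.00496). Smaller calls of Pex6 (-0.76), Pex26 (-0.57) and Pex19 (0.39) were each lost when single libraries were left out: Pex6 without vehicle replicate 1 or 3 or AOA replicate 1 (adjusted p between 0.0647 and 0.0989), Pex26 without vehicle replicate 1 or 3 or any one AOA replicate (0.0702 to 0.136), and Pex19 without vehicle replicate 1 or 3 or AOA replicate 2 or 3 (0.0534 to 0.0720).

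Of 16 tested genes for enzymes that make superoxide or peroxide, 1 was called higher, 6 lower and 9 were not called, with a median log2 fold change of -0.50. Smox, spermine oxidase, fell by 2.80 from 45.8, 17.6 and 41.0 CPM to 4.55, 4.97 and 5.45 CPM (edgeR adjusted p = 0.000189). Xdh, xanthine dehydrogenase, fell by 1.92 and Ncf1, the p47phox subunit of the phagocyte NADPH oxidase, by 1.28 on the log2 scale. Myeloid cells also use that oxidase; of their markers Itgam and Cd14 stood lower with AOA and Lyz2 higher, as given above, and their part in these values was not tested. Nox1, a catalytic NADPH oxidase subunit, rose by 1.89 at a low level, from 1.14 to 1.43 CPM up to 4.59 to 5.39 CPM. Of the 9 other family members listed, 3 could be tested (Prdx6, Gpx7 and Ccs), and Ccs was the only one called. Over all 79 tested pathway genes 21 were called higher and 19 lower (26.6% and 24.1%), close to the shares over all genes.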

How the data were processed

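RNA of 3 vehicle and 3 AOA cultures of CD8+ T cells was sequenced by the authors as paired reads from a stranded messenger RNA kit. According to the submitters' processing notes, bcl2fastq, STAR, featureCounts, DESeq2 and the mm10 build were used; none of the sources used here gives the versions, the annotation or the strand setting of the counting. The authors deposited raw counts of uniquely mapped reads per gene, with a length for each gene.

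From these counts, CPM, RPKM and tests were computed in R 4.3.3 with edgeR 4.0.16 (filterByExpr with a minimum count of 10, TMM, robust quasi-likelihood test, Benjamini-Hochberg adjustment, threshold 0.05) over 11759 genes. Groups came from the labels. The fit did not use the mouse. The pairing comes from the donor label. The 2 libraries of mice 1, 2 and 3 departed from their group means together only weakly across genes, with r of 0.0868, 0.189 and 0.194. Libraries of different mice were not compared in this way. The steps were run on simulated data in which few genes changed, without a mouse effect, a length trend or outlying libraries. That check does not cover these features of the data. The 4 ratios were compared by exact two-sided permutation tests, without pairing by mouse, adjusted over the 4. P-values measure the spread between cultures.

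The members and gene lists were chosen with earlier results of these data known. Named are all members, Prdx6, the thioredoxins and their main reductases, Srxn1, Gsr, Ccs, Sepsecs, Scly, and from each list up to 3 called genes per direction with the largest absolute log2 fold change. Alternatives were a replicate block for the mouse, removal of the trend with gene length, both of these together, leaving out each library, limma 3.58.1 with voom, DESeq2 1.42.0, its size factors within edgeR, unscaled totals, testing without a filter, and a filter of 10 CPM in 3 libraries. Leaving out vehicle replicate 2 and AOA replicate 1 together was added after seeing the data. Promoters came from RefSeq (GRCm38.p6) and gene models from GENCODE vM21.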

Additional observations from a re-analysis of the deposited data

How the results depend on the processing

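The calls of Prdx1, Prdx4, Gpx1 and Sod2 held in all 16 alternatives, that of Prdx3 in 15 and that of Prdx5 in 12, and Cat had an adjusted p of at least 0.0829 in each of them. With single libraries left out, 4 to 5 members were called higher and 0 to 2 lower, and 14 to 30 pathway genes higher and 14 to 23 lower, while 21.3 to 29.6% of all tested genes were called higher and 20.6 to 27.9% lower. In those fits the log2 fold change of Prdx3 ran from 0.35 to 0.64, that of Prdx5 from -0.59 to -0.36, that of Gpx4 from -0.54 to -0.10, that of Prdx2 from -0.23 to 0.15, that of Sod1 from -0.33 to -0.0852 and that of Cat from 0.18 (without vehicle replicate 2) to 0.41 (without vehicle replicate 3). Without vehicle replicate 2 and AOA replicate 1, 4 members were called lower (Prdx2 at -0.25, Prdx5, Gpx4 at -0.61 and Sod1 at -0.43), Ero1a changed sign to 0.29 (adjusted p = 0.0373), and pathway genes called higher and lower numbered 32 and 29, where 33.8% and 32.8% of all 11775 genes tested in that fit were called higher and lower. This fit keeps only 2 libraries a group, chosen for being alike; the cause was not tested.

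With the mouse as a replicate block, 5 members were called higher and 1 lower (26.6% and 26.9% of all genes), with log2 fold changes of 1.94 (Prdx1), -0.02 (Prdx2), 0.52 (Prdx3), 1.61 (Prdx4), -0.46 (Prdx5), 0.98 (Gpx1), -0.29 (Gpx4), -0.19 (Sod1), 0.53 (Sod2) and 0.28 (Cat), and 24 and 20 pathway genes were called. The block changed no call of a named gene but that of Nadk2. It called 6292 genes, of which 6007 were called without it. With the length trend removed, 5 members were called higher and 1 lower, beside 28.3% and 26.9% of all genes. Of 1251 values of 79 pathway genes over the alternatives, 1098 kept direction and side of the threshold, 40 changed sign without a call in either fit, 65 gained a call, 47 lost one and 1 reversed with a call. The 4 ratios kept their direction whenever 1 library was left out. That was fixed beforehand, because the AOA and vehicle values did not overlap in any of the 4. Depth was not limiting for the members, which had at least 145 counts in each library.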
